A study of Mus musculus with 6 samples.

Results

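Across 6 lists of accessible sites from CGR8 mouse embryonic stem cells, 4475 regions lay at the end of a protein-coding gene and held a peak in every list, yet were not among the most highly ranked. They are described here as the shared gene-end regions. Peaks of the 6 lists were merged where they overlapped by at least 1 bp on chromosomes 1 to 19, which gave 64018 regions. Of these, 9939 held a peak in all 6 lists, and 4874 of those had their centre within 1 kb of an annotated start or end of a protein-coding gene (mm10). The members were selected by measured values as well as by position: a peak had to be called in every list, and the 500 shared regions with the highest minimum rank of the authors' score were left out. That removed 399 gene-end regions, so that the 4475 members made up 6.99% of all regions and 45.0% of the shared ones. Being open in all lists is therefore no finding about them, and how high they ranked is given as a description.

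The study followed chromatin accessibility by ATAC-seq as pluripotent cells leave mitosis, per its title. Each of 3 groups, labelled mito, LM and eG1-1, had 2 samples, and each sample had 1 deposited list of peaks. All groups were the line CGR8, whose cells named Cdt1-MD in the series' design were left untreated in serum-free N2B27 medium with the GSK3 inhibitor CHIR99021, the MEK inhibitor PD184352 and leukemia inhibitory factor. All 3 groups came from this 1 line, so no second line stands beside it. What the 3 names stand for is not written out in the labels. They are read here in the order mitosis, late mitosis and early G1, and the peak names of the LM lists say Telo where the titles say LM. The titles, the peak names and the protocol give different cell numbers, and nothing says that replicates were separate cultures, so p-values measure the spread among these lists alone and it may be technical.

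ATAC-seq finds open chromatin through the transposase Tn5, which cuts DNA and attaches adapters where no nucleosome is in the way. At active promoters the nucleosomes around the transcription start are displaced, and in mammals most broadly used promoters lie in CpG islands, stretches of DNA rich in unmethylated CG dinucleotides. Chromosomes condense and transcription is largely silenced in mitosis, but many promoters of stem cells are known to stay accessible, and transcription resumes as cells enter G1.

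Promoters of 4 members show what such regions look like, and were taken as the first member on each side of the comparison of eG1-1 with mito and the members of highest and lowest mean rank. The sequences are those of RefSeq on GRCm38.p6, from 250 bases before to 50 bases after the annotated start, in the sense of the gene, and capitals mark every match on either strand to 1 of 15 short motifs.
Gm10509 (chr17:21679627-21679926, plus strand): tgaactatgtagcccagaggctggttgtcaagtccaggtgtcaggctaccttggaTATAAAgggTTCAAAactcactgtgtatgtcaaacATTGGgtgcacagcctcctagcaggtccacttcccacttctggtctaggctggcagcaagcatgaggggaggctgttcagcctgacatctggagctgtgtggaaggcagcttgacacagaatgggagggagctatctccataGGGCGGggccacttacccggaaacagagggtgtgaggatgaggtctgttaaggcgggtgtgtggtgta
Ddx18 (chr1:121567931-121568230, minus strand): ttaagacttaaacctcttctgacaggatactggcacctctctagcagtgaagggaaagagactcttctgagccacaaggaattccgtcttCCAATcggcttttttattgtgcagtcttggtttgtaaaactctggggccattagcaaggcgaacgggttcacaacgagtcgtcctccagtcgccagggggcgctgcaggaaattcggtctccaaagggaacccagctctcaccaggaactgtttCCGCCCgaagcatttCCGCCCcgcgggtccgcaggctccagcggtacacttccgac
Baiap2l1 (chr5:144358063-144358362, minus strand): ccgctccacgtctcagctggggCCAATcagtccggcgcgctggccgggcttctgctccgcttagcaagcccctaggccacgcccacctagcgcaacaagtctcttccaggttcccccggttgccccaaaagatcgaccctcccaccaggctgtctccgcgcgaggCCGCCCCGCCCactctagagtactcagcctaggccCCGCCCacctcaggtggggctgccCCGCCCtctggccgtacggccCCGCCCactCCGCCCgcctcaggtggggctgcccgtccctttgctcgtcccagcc
Smagp (chr15:100636891-100637190, minus strand): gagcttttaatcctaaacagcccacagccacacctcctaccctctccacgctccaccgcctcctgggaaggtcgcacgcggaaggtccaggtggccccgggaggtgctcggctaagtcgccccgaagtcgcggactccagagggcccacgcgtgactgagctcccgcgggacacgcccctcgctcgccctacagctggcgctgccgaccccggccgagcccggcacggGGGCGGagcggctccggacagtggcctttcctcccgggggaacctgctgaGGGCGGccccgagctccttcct
The capitals are a TATA box (TATAAA), a CHR element (TTTGAA, here on the other strand), a CCAAT box on the other strand and a GC box (GGGCGG) in Gm10509, and a CCAAT box and 2 GC boxes in Ddx18. In Baiap2l1 they are a CCAAT box and 6 GC boxes, and in Smagp 2 GC boxes. Gm10509 held 3 CpG in its 300 bases, Ddx18 17, Baiap2l1 25 and Smagp 30. A match describes the letters and does not show that a factor binds there. Baiap2l1, which encodes a membrane-bending adaptor of the actin cytoskeleton, had the highest mean rank of all members, 98.3 ± 2.35 (SD over the 6 lists) on a scale on which 100 is the top peak of a list. Smagp, a small transmembrane glycoprotein gene, had the lowest, 14.1 ± 13.9, and its region reached over 194 of the 300 bases shown.

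The lists differed in length and in how they resembled each other, which bears on every comparison below. On chromosomes 1 to 19 there were 24101 and 29779 peaks in the mito lists, 23377 and 20289 in the LM lists and 31443 and 47411 in the eG1-1 lists. The members held 19.3% and 15.6% of the mito peaks, 19.5% and 23.0% of the LM peaks and 15.03% and 10.0% of the eG1-1 peaks. Peak names place all replicate 1 lists in one run folder and all replicate 2 lists in another, so each group has 1 list in each run. The lists hold no read counts, so read depth is unknown. Over the 4475 members, Spearman's rho of the score between the lists of a group was 0.629 for the mito pair, 0.563 for the LM pair and 0.728 for the eG1-1 pair. LM replicate 1 was more like the mito lists (0.658 and 0.627) than like its own partner, whereas LM replicate 2 was more like the eG1-1 lists (0.638 and 0.690). The LM group thus holds a pair of lists that stand on either side, and comparisons with LM carry that spread.

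The labelled cell type was checked at gene ends. Of 12 marker genes of embryonic stem cells, 10 and 8 had a peak at an end in the mito lists, 6 and 4 in the LM lists and 3 and 7 in the eG1-1 lists. Zfp42 and Utf1 had one in all 6 lists, while Esrrb and Dppa3 had none in any list. Of 16 markers of other cell types, between 1 and 4 had one in a list and 11 had none in any list. Col1a1, a collagen gene of fibroblasts, had one in all 6 lists, and Thy1 had one in every list but mito replicate 1. Zfp42, which encodes the stem cell factor Rex1, was the single stem cell marker with a member, and no marker of another type had one.

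Most members lay within 1 kb of a transcription start, and the rule kept only centres within 1 kb of a gene end. Inside that limit the median distance from a member's centre to the nearest gene end, of either kind, was 155.5 bp. Of the centres, 35.1% lay within 100 bp of it, 60.1% within 200 bp and 89.4% within 500 bp. Strand was taken from the promoter table, which separates starts from other ends. By that source 3633 members (81.2%) lay at a start, 101 (2.26%) at other ends only, and for 741 (16.6%) the strand was not in the table, which includes all 112 members on chromosome 18, whose promoters were not used here. Of the 101, 92 had no start listed in the promoter table within 1 kb of the centre. One start lay within reach of 3157 members, 2 starts of 471 and 3 or more of 5, and 320 members had a divergent pair of starts within reach. In 171 members a start and an end of another kind, of the same gene or another, lay within reach of the same centre. The median region was 995 bp wide, and 3766 members (84.2%) held exactly 1 peak in every list.

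The 5191 genes with a member made up 25.1% of 20665 protein-coding genes. By chromosome the share ran between 17.98% on chromosome 14 and 33.5% on chromosome 8. Noncoding genes also ended at members: 512 members (11.4%) lay at an end of a lncRNA gene, 30 at a miRNA gene, 17 at a tRNA gene and 9 at a snoRNA gene. Chromosome X was outside the rule. There, 101 shared regions lay at gene ends and touched 120 of 966 genes (12.4%), against 5667 of 20665 genes (27.4%) on chromosomes 1 to 19 when the 500 highest regions are counted in.

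Genes of the cell's basic machinery had a member at larger shares than the 25.1% of all protein-coding genes. Of 48 genes for mitotic kinases, cyclins and the spindle checkpoint, 37 (77.1%) had a member, among them Cdk1, Ccnb1, Plk1, Aurka, Bub1, Cdc20 and Espl1, and 10 had neither a member nor a place among the 500, among them Aurkb and Cenpe. For aminoacyl-tRNA synthetases the count was 23 of 39 genes, for the respiratory chain and ATP synthase 41 of 71, for mitochondrial ribosomal proteins 43 of 77 and for RNA polymerase II with its general factors and Mediator 45 of 81. Translation factors had a member at 26 of 47 genes, the cohesin and condensin group with Ctcf at 12 of 22, replication and G1/S genes at 27 of 51 and the proteasome at 21 of 40. Chaperones, the spliceosome and DNA repair followed with 24 of 46, 30 of 58 and 30 of 61 genes. These counts are descriptions and carry no test.

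In other groups the share was lower. Pluripotency genes had a member at 9 of 32 genes (28.1%), which were Klf5, Zfp42, Dppa2, Tbx3, Fbxo15, Stat3, Trim28, Zfp281 and Rif1. Pou5f1, Sox2, Nanog, Klf4 and Esrrb, the best known factors of the stem cell state, had none. Cytosolic ribosomal proteins had one at 19 of 75 genes (25.3%), against 43 of 77 for their mitochondrial counterparts. In the cohesin and condensin group the condensin genes Smc2, Smc4, Ncapd2, Ncapd3, Ncapg, Ncapg2, Ncaph and Ncaph2 all had a member. So did Smc3 of cohesin and the cohesin regulators Esco2 and Cdca5, the loader gene Mau2 was among the 500, and Ctcf, Rad21, Stag1, Nipbl and Wapl had neither. Immediate early and stress genes had one at 16 of 37, including Fos, Jun and Egr1 but not Myc, Junb or Atf3. Genes of primed, germ layer and other cell types had one at 1 of 30, the neuronal tubulin Tubb3, and olfactory, vomeronasal, defensin, keratin and casein genes at 1 of 32, Krt77.

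**Figure D1:**
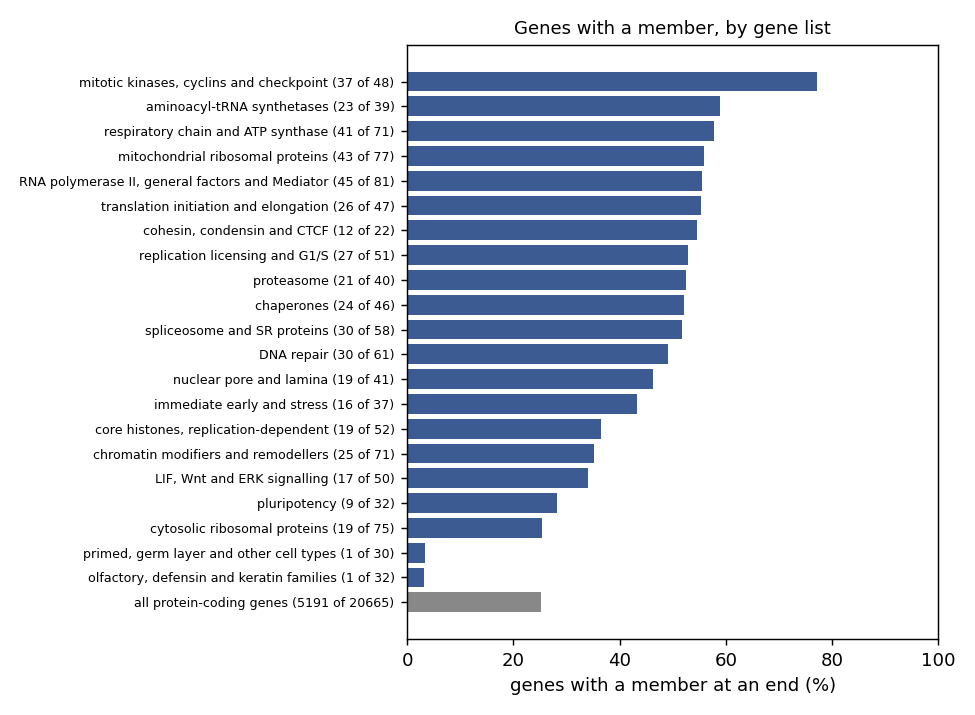
Percentage of the genes of each list, on chromosomes 1 to 19, that have a member at an end; blue bars are gene lists with their counts in brackets and the grey bar is all protein-coding genes. Mitotic genes reach 77.1%, pluripotency and cytosolic ribosomal protein genes lie near the 25.1% of all genes, and the bottom lists hold 1 gene each.

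Within these groups the ranks spread widely. Mad2l1, the spindle checkpoint protein that restrains the anaphase-promoting complex, stood at the top of the mitotic genes with a mean rank of 96.9 ± 3.79 over the 6 lists. Anapc2, a subunit of that complex whose region is shared with Ssna1, stood lowest with 40.5 ± 28.8. Among replication genes Gins4 of the replicative helicase averaged 97.3 ± 2.66 and Pola2 of DNA polymerase alpha 19.7 ± 16.2. Zfp42 averaged 93.6 ± 4.09 and Dppa2, a gene of the early embryo, 51.9 ± 27.2. The shared region of Sars2 and Mrps12, a divergent pair for a mitochondrial tRNA synthetase and a mitochondrial ribosomal protein, averaged 97.4 ± 2.24. The region of Ttc41 and Hsp90b1, the chaperone of the endoplasmic reticulum, averaged 97.7 ± 2.2. A region shared by Slc35b2 and the cytosolic chaperone gene Hsp90ab1, with its centre 584 bp from the nearest end and the strand not in the table, averaged 38.3 ± 11.5. Of these examples, those with a high mean rank varied little between lists and those with a middle or low one varied more.

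At the upper limit set by the rule, members and left-out regions held nearly the same values. The lowest of the 6 ranks was 93.958 for Rap2a and for Gpr108 and 93.923 for Ccng1, the members just inside. It was 93.958 for Usp36, 93.986 for A130010J15Rik and 93.999 for Tmem170b, the nearest gene-end regions among the 500. The tie at 93.958 was broken by chromosome and position.

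The kind of gene end went with how high a member ranked. Scores were compared as percentiles of a region's score among the 9939 shared regions of the same list. Members with 2 or more starts had median percentiles of 70.5 and 70.0 in the mito lists, 71.1 and 64.4 in the LM lists and 53.4 and 58.0 in the eG1-1 lists. Members at other ends only had medians of 32.2 and 35.8 in the mito lists, 35.5 and 43.0 in the LM lists and 39.3 and 48.5 in the eG1-1 lists. Distal shared regions, with the 500 highest also left out, had 37.5 and 38.1 in the mito lists, 35.5 and 40.9 in the LM lists and 43.3 and 43.1 in the eG1-1 lists. In every list the members with 2 or more starts lay above the members at other ends, and the gap was smallest in the eG1-1 lists. Over all members the medians were 58.9 and 57.5 in the mito lists, 61.8 and 55.8 in the LM lists and 52.7 and 53.8 in the eG1-1 lists.

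**Figure D2:**
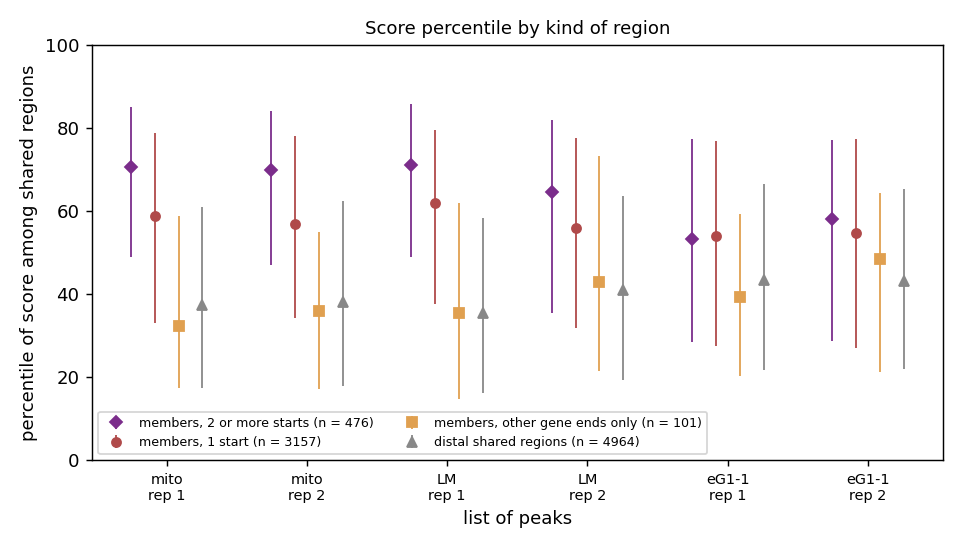
Score percentile among the 9939 shared regions (vertical axis) in each of the 6 lists (horizontal axis), for members with 2 or more starts, members with 1 start, members at other gene ends only and distal shared regions; points are medians over regions and lines run over the interquartile range. Members with 2 or more starts stand at 53.4 and 58.0 in eG1-1 and 70.5 and 70.0 in mito, and the classes overlap widely.

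Around a single start, peaks lay on both sides and their downstream reach differed between lists. For the 2905 members with 1 start and no other gene end in reach, a peak covered the start itself in 79.9% and 79.0% of members in the mito lists, 80.1% and 66.1% in the LM lists and 73.0% and 76.9% in the eG1-1 lists. The median upstream edge lay at −328 and −392 bp in the mito lists, −317 and −268 bp in the LM lists and −293 and −358 bp in the eG1-1 lists. The median downstream edge lay at 332 and 384 bp in the mito lists, 364 and 176 bp in the LM lists and 213 and 288 bp in the eG1-1 lists. Both eG1-1 lists thus ended nearer to the start than both mito lists on the downstream side, and LM replicate 2 ended nearest of all. At 300 bp downstream a peak was present in 26.99% and 41.8% of these members in eG1-1, against 48.6% and 52.8% in mito. At 300 bp upstream the shares were 44.5% and 60.5% in eG1-1 and 54.1% and 64.0% in mito, so that the groups overlapped there. Median covered length over all members was 682 and 763 bp in the mito lists, 686 and 435 bp in the LM lists and 490 and 658 bp in the eG1-1 lists, so lists with narrow peaks as a whole are also those that reach less far. The part of overall peak width in the downstream difference was not tested.

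**Figure D3:**
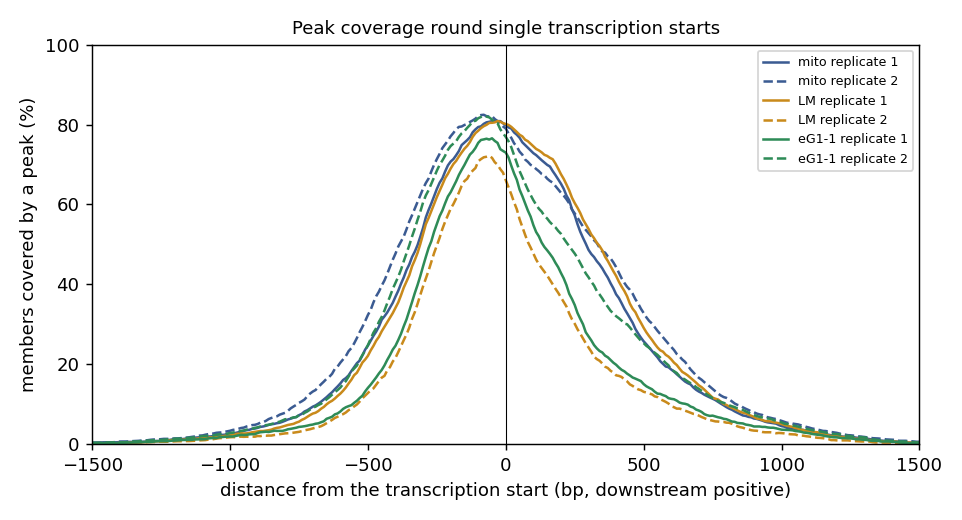
Percentage of the 2905 members with a single start that are covered by a peak (vertical axis) at each distance from that start in bp (horizontal axis, downstream positive), 1 line per list, solid for replicate 1 and dashed for replicate 2. All lists peak just upstream of the start; at 300 bp downstream, LM replicate 2 (24.2%) and eG1-1 replicate 1 (26.99%) lie below the other lists.

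The members' promoters were rich in CpG and in the motifs of broadly used promoters. Promoter sequences were used for 16457 of the 20665 genes (79.6%), none of them on chromosome 18, and 3861 of these promoters were overlapped by a member. Promoters of members held a median of 21 CpG in 300 bases and a GC content of 61.0%, against 14 CpG and 56.7% over all promoters and 3 CpG and 49.0% over the 7518 promoters that no region of any list touched. The 412 promoters under the 500 highest regions were alike in this, with 22 CpG and 61.7%. A GC box (GGGCGG), the site of the Sp family, was in 70.1% of member promoters and 47.3% of all. An ETS site (CCGGAAG) was in 22.8% and 12.3%, an NRF1 site (GCGCATGCG) in 4.90% and 2.46%, a YY1 site (AAGATGGCG) in 3.73% and 1.92% and a CRE (TGACGTCA) in 4.48% and 2.40%. A TATA box (TATAAA) was in 5.41% of member promoters and 13.5% of all, a CHR element (TTTGAA) in 11.03% and 15.9% and an AP-1 site (TGACTCA) in 2.33% and 4.59%. The E-box (CACGTG), the ZBTB33 site (TCTCGCGAG), the ZFP143 site (ACTACAATT) and the E2F forms TTTGGCGC and TTTCCCGC were in 10.7%, 2.05%, 1.32%, 1.37% and 2.59% of member promoters and in 7.97%, 0.997%, 0.577%, 0.674% and 1.48% of all. The octamer ATGCAAAT, the element that OCT4 recognises, was in 1.66% and 1.74%. Motifs were searched on both strands, and base composition alone differs between these sets of promoters.

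The CCAAT box, bound by the trimeric factor NF-Y, had a lower share under members than under the highest regions. It was in 48.0% of member promoters, 73.5% of promoters under the 500 highest regions and 39.1% of all promoters. ETS sites ran the other way, with 22.8% under members and 17.7% under the 500. Among the members themselves, those with a CCAAT box had a median of their mean percentile of 63.2, against 56.0 over all 3441 members with a promoter. The 3441 include the 1696 with a CCAAT box. Over the 15 motifs this median ran from 46.9 with a TATA box to 68.4 for the 48 members with the E2F form TTTGGCGC.

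The comparison of eG1-1 with mito asked how these gene ends differ between early G1 and mitosis. Ranks were turned into normal scores and compared with limma over all 9939 shared regions, with Benjamini-Hochberg adjustment over all of them. None of the 4475 members passed an adjusted p of 0.05, and no shared region did (background 0%). The smallest adjusted p among members was 0.137. At an unadjusted p under 0.05 there were 657 members (14.7%), 220 higher and 437 lower in eG1-1, against 15.1% of all shared regions. The split by direction was not worked out over all shared regions, so the members' split has no background. With the log2 of the score in place of its rank, limma called 10 members (0.223%), against a background of 0.372% of shared regions. These were Gm10509, Dhtkd1, Mab21l3 and Pitrm1, higher in eG1-1, and Ddx18, Rpl22, Ppp2r1b, Trnt1 and the pairs Dus2 and Ddx28 and Ilk and Rrp8, lower in eG1-1. The call thus depends on the scale of the score, and lists of unequal depth need not share a log scale.

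Ranked among all shared regions, more members lay below mito than above it in eG1-1. Both eG1-1 lists were below both mito lists at 1349 members (30.1%), against a background of 24.7% of shared regions. They were above at 847 members (18.9%), against a background of 24.2%. The median difference over members was −0.14 in normal scores, and −0.01 over all shared regions. Leaving out 1 list asks fewer lists to agree, and the counts were then between 1906 and 2003 below and between 1340 and 1424 above when a mito or an eG1-1 list was left out. A background for those counts was not worked out. These ranks are relative to shared regions, 5065 of which are distal, so the members' lower ranks and the distal regions' higher ranks are the same measurement. Ranked among the 4475 members alone, 1103 lay below and 1073 above, close to equal. Ranking within the members takes out any shift that they share, so these counts cannot show whether there is one.

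The largest differences in favour of eG1-1 were at 5 members that did not pass the test. Gm10509, a predicted gene, was at percentiles 89.3 and 93.2 in eG1-1 and 1.43 and 29.5 in mito, a difference of 2.73 ± 0.556 normal scores (SE; limma adjusted p = 0.137). The deposited scores behind these were 196 and 356 in eG1-1 and 25 and 84 in mito, and the LM lists already stood at percentiles 96.5 and 96.4. Dhtkd1, a mitochondrial enzyme of lysine breakdown, was at 69.6 and 76.3 in eG1-1 and 3.41 and 3.43 in mito, while the LM lists stood at 69.7 and 63.1. In both genes the LM lists stood with eG1-1. Pitrm1, a mitochondrial peptidase, was at 97.4 and 96.7 in eG1-1 and 33.1 and 33.4 in mito, while the LM lists stood at 73.8 and 83.9. Mab21l3 was at 96.0 and 93.6 in eG1-1 and 44.0 and 4.89 in mito, and its LM lists were split, at 27.3 and 76.0. The zinc finger gene Zfp946 was at 53.4 and 85.5 in eG1-1 and 3.04 and 2.90 in mito, and its LM lists were split as well, at 28.6 and 82.2.

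In the other direction the 5 members with the largest differences did not pass either. Ddx18, an RNA helicase of ribosome assembly, was at percentiles 1.69 and 7.87 in eG1-1 and 75.2 and 90.9 in mito, a difference of −2.78 ± 0.586 normal scores (SE; limma adjusted p = 0.137). Its deposited scores were 24 and 60 in eG1-1 and 133 and 226 in mito, while the LM lists stood at percentiles 63.9 and 10.2. The region between Dus2, a tRNA dihydrouridine synthase, and Ddx28, a mitochondrial RNA helicase, was at 5.12 and 9.88 in eG1-1 and 96.9 and 76.5 in mito. Rpl22, a protein of the large ribosomal subunit, was at 0.458 and 8.63 in eG1-1 and 78.7 and 70.4 in mito. For Ddx18 and Rpl22 LM replicate 1 stood with mito and LM replicate 2 nearer to eG1-1, as the lists did as a whole. The region of Mageb3 and Ctdspl2 was at 0.78 and 27.1 in eG1-1 and 93.5 and 78.5 in mito, and the zinc finger gene Zfp407 at 6.52 and 0.0252 in eG1-1 and 43.1 and 59.3 in mito.

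**Figure D4:**
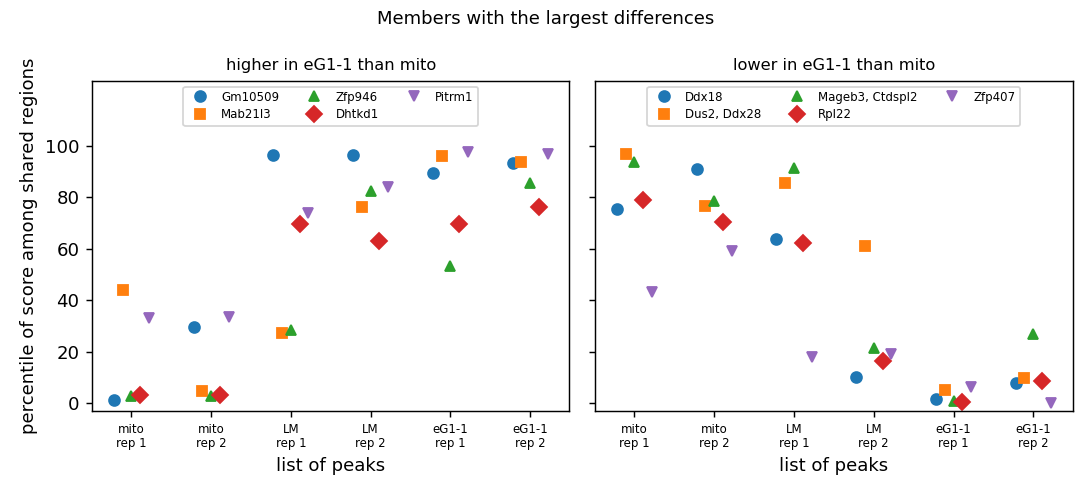
Score percentile among the 9939 shared regions (vertical axis) in each of the 6 lists (horizontal axis) for the 5 members most in favour of eG1-1 (left) and the 5 most in favour of mito (right); 1 point per member and list, shifted sideways for sight. Gm10509 stands at 89.3 and 93.2 in eG1-1 and 1.43 and 29.5 in mito, Ddx18 at 1.69 and 7.87 in eG1-1 and 75.2 and 90.9 in mito, and none of these differences passed the test.

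By gene list, 19 of 21 lists had more members below both mito lists than above them in eG1-1, by ranks among all shared regions. Replication-dependent histone genes had 12 regions, of which 8 were below both mito lists and 0 above. Their median percentiles were 38.6 and 30.2 in eG1-1 and 79.1 and 62.9 in mito. Replication and G1/S genes had 14 of 27 regions below and 2 above, and cohesin and condensin genes 6 of 13 below and 1 above. Among mitotic genes 13 of 37 were below and 5 above, among RNA polymerase II and Mediator genes 20 of 45 below and 4 above, and among spliceosome genes 13 of 30 below and 2 above. Aminoacyl-tRNA synthetase genes had 4 of 24 below and 7 above, and the single region of the olfactory, defensin and keratin list, Krt77, was above. Immediate early and stress genes had 4 of 16 below and 2 above. None of these regions passed the test of single regions, and these counts read against the 30.1% below and 18.9% above over all members. Ranked among the members alone, where 24.6% of all members lay below and 24.0% above, histone genes had 7 of 12 regions below and 0 above, replication genes 12 of 27 below and 3 above, and mitotic genes 12 of 37 below and 5 above. On that ranking immediate early genes had 3 below and 3 above.

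How rich a promoter was in CpG went with the difference between eG1-1 and mito. Members with a promoter were put into 4 classes of about equal size by CpG count. The 768 members in the highest class, with 29 to 53 CpG, had median percentiles of 50.1 and 47.9 in eG1-1 and 66.1 and 63.0 in mito. The 972 members in the lowest class, with 0 to 16 CpG, had 56.1 and 57.7 in eG1-1 and 52.0 and 55.6 in mito. In the highest class both eG1-1 lists were below both mito lists at 315 members (41.0%) and above at 70 (9.12%). In the lowest class they were below at 211 (21.7%) and above at 285 (29.3%). The background over all shared regions was 24.7% below and 24.2% above. The median difference was −0.39 normal scores in the highest class and 0.08 in the lowest, a gap of −0.47, and the gap was −0.47 within run 1 and −0.47 within run 2. Leaving out a mito or an eG1-1 list moved it between −0.56 and −0.42. The relation was seen in these data and is given as a description without a test.

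**Figure D5:**
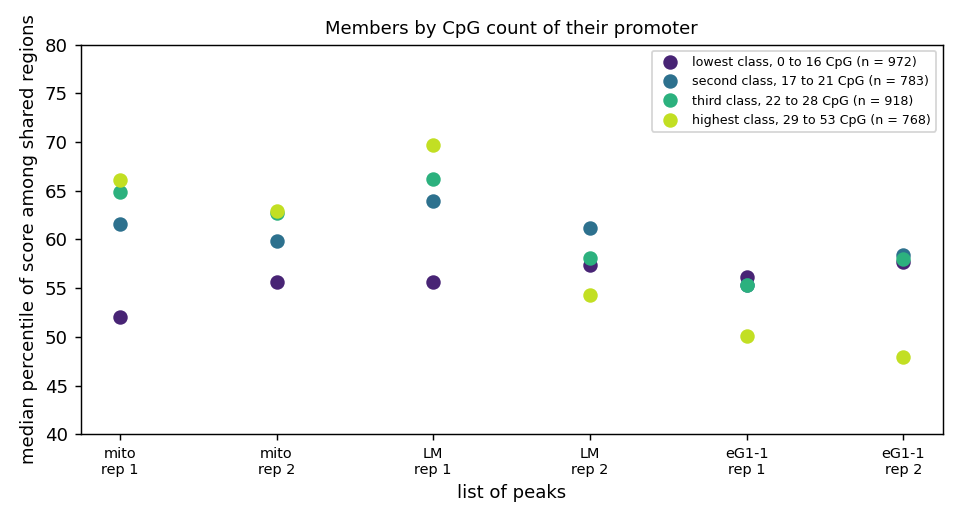
Median score percentile among the 9939 shared regions (vertical axis, drawn between 40 and 80) in each of the 6 lists (horizontal axis) for members in 4 classes by the CpG count of their promoter. The highest class is at 50.1 and 47.9 in eG1-1 and 66.1 and 63.0 in mito, the lowest at 56.1 and 57.7 in eG1-1 and 52.0 and 55.6 in mito, and in the highest class LM replicate 1 stands at 69.7 and LM replicate 2 at 54.4.

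Members grouped by motif differed as well. The median difference of eG1-1 from mito was −0.63 normal scores for the 65 members with a ZBTB33 site, −0.36 for the 174 with an NRF1 site, −0.36 for the 154 with a CRE and −0.36 for the 389 with an E-box. It was −0.05 for the 1696 members with a CCAAT box, 0.03 for the 62 with an octamer and 0.12 for the 48 with a ZFP143 site. Over all 3441 members with a promoter it was −0.15. Members with a YY1 site (−0.28) or the E2F forms TTTGGCGC (−0.21) and TTTCCCGC (−0.27) lay below that value. GC boxes (−0.17), ETS sites (−0.19), AP-1 sites (−0.17), CHR elements (−0.15) and TATA boxes (−0.13) lay near the value of all. The members with a ZBTB33 site stood at median percentiles of 32.3 and 41.0 in eG1-1 and 66.1 and 60.5 in mito. The motif groups overlap each other and the CpG classes, so they are not separate pieces of evidence.

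The comparison of LM with mito addressed the step within mitosis. limma called no member and no shared region (background 0%), with a smallest adjusted p of 0.467, and log2 scores gave 0 calls too (background 0%). At an unadjusted p under 0.05 there were 256 members (5.72%), against 7.31% of shared regions. Both LM lists were above both mito lists at 767 members (17.1%), against a background of 17.6%, and below at 758 (16.9%), against a background of 17.4%. The members' shares therefore lay at the background on both sides. Without LM replicate 2 the counts were 1645 above and 1342 below, and without LM replicate 1 they were 1435 above and 1743 below. With mito replicate 1 or 2 left out they were 1456 and 1459 above and 1473 and 1446 below. No background was worked out for counts with a list left out.

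The members farthest apart between LM and mito did not pass the test. After Gm10509 and Dhtkd1, the members most in favour of LM were Fsip1, Zfp946 and the region of Hrc and Ppfia3. Fsip1, a gene of the sperm tail, was at percentiles 77.9 and 54.4 in LM and 9.79 and 1.65 in mito. The region of Hrc and Ppfia3, which lay at gene ends other than starts, was at 83.1 and 82.8 in LM and 25.6 and 7.00 in mito. On the other side, Zswim4 was at 0.0101 and 0.282 in LM and 25.6 and 34.9 in mito, and its region too lay at an end other than a start. Mpzl3 was at 3.22 and 4.28 in LM and 76.3 and 63.5 in mito. Ptprj, a receptor tyrosine phosphatase, was at 6.11 and 4.28 in LM and 63.3 and 74.9 in mito, the engulfment adaptor Gulp1 at 7.09 and 3.41 in LM and 73.5 and 59.9 in mito, and the polarity gene Llgl1 at 0.252 and 5.12 in LM and 58.9 and 28.5 in mito. Differences ran between −2.72 and 3.17 normal scores over all members, with a median SE of 0.496.

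The comparison of eG1-1 with LM addressed the entry into G1. limma called no member and no shared region (background 0%), with a smallest adjusted p of 0.555, and log2 scores gave 0 calls (background 0%). There were 340 members (7.598%) at an unadjusted p under 0.05, 81 higher and 259 lower in eG1-1, against 8.15% of shared regions. Here too the split by direction has no background. Both eG1-1 lists were below both LM lists at 1048 members (23.4%), against a background of 19.2%, and above at 669 (14.9%), against a background of 19.9%. Ranked among the members alone, which takes out any shift that they share, 814 were below and 864 above. Without LM replicate 2 the counts were 2074 below and 1258 above, and without LM replicate 1 they were 1679 below and 1456 above. With eG1-1 replicate 1 or 2 left out they were 1718 and 1760 below and 1218 and 1221 above. Counts with a list left out stand without a background here too. The CpG gap of this comparison was −0.31 normal scores, −0.49 within run 1 and −0.17 within run 2. That of LM with mito was −0.15, at −0.01 within run 1 and −0.31 within run 2, so both gaps differed between the runs.

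Most in favour of LM, without passing the test, was Wasf2, an actin regulator, at percentiles 0.458 and 1.16 in eG1-1 and 68.5 and 67.1 in LM, a difference of −2.90 ± 0.518 normal scores (SE; limma adjusted p = 0.555). Cnot10, a subunit of the CCR4-NOT deadenylase, was at 0.257 and 29.2 in eG1-1 and 67.1 and 83.9 in LM. Ctnna3, an alpha-catenin, was at 1.01 and 8.63 in eG1-1 and 72.3 and 59.6 in LM, and the kinase gene Pim1 at 6.52 and 6.25 in eG1-1 and 67.1 and 79.6 in LM. The region of 1700029J07Rik and the UFM1 protease gene Ufsp2 was at 7.79 and 6.70 in eG1-1 and 84.9 and 63.7 in LM. In favour of eG1-1 stood Prpf6, a spliceosome component, at 25.5 and 58.4 in eG1-1 and 0.252 and 5.12 in LM, with Zswim4, Zfp988, Atp5j2 and the region of Wdr3 and Gdap2. Zswim4 was at 15.4 and 5.90 in eG1-1 and Zfp988 at 74.4 and 52.2 in eG1-1 and 16.3 and 2.00 in LM. Atp5j2, a subunit of the mitochondrial ATP synthase, was at 87.2 and 60.1 in eG1-1 and 2.17 and 39.9 in LM. The comparisons share lists, so that a gene in more than 1 of them is not seen independently.

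Peak width, which the rule did not use, gave the same absence of calls. The measure was the log2 of the bases covered by a list's peaks in a region, centred on the list's median over shared regions. No member passed an adjusted p of 0.05 by limma in LM against mito, eG1-1 against mito or eG1-1 against LM (background 0% in each). The smallest adjusted p among members was 0.819, 0.445 and 0.670 in that order, and 189 (4.22%), 319 (7.13%) and 241 (5.39%) members were at an unadjusted p under 0.05, against 5.51%, 7.52% and 5.87% of all shared regions. Uhrf1, which recruits the maintenance DNA methyltransferase to newly replicated DNA, was covered over 198 and 261 bp in eG1-1 and 653 and 1389 bp in mito, a centred log2 difference of −1.78 ± 0.468 (SE; limma adjusted p = 0.445). Tuba1b, an alpha-tubulin gene, was covered over 340 and 444 bp in eG1-1 and 1182 and 1974 bp in mito, and Tent5c over 327 and 232 bp in eG1-1 and 758 and 1551 bp in mito. The other way, Chac2 was covered over 848 and 1385 bp in eG1-1 and 224 and 692 bp in mito, Ccdc68 over 787 and 1417 bp in eG1-1 and 341 and 480 bp in mito, and Tesmin over 636 and 727 bp in eG1-1 and 223 and 348 bp in mito.

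Between LM and mito the deacetylase gene Hdac1 had the widest gap in favour of mito, with 715 and 358 bp in LM, against 1990 and 2007 bp in mito. Ppp6r2 followed with 234 and 229 bp in LM, against 633 and 1259 bp in mito, and Prss41 with 256 and 199 bp in LM, against 893 and 834 bp in mito. In favour of LM were Brinp1, with 538 and 501 bp in LM, against 273 and 239 bp in mito, and Tirap and Hs3st5, whose raw covered lengths overlapped between the groups and parted only after centring. Tirap had 1075 and 278 bp in LM, against 220 and 320 bp in mito. Between eG1-1 and LM, the peroxiredoxin gene Prdx1 was covered over 243 and 533 bp in eG1-1 and 1092 and 869 bp in LM, Hacd3 over 236 and 425 bp in eG1-1 and 1152 and 741 bp in LM, and Mrpl20, a mitochondrial ribosomal protein gene, over 413 and 230 bp in eG1-1 and 1061 and 670 bp in LM. Msx3 was covered over 650 and 1194 bp in eG1-1 and 265 and 204 bp in LM, the region of Tmem237 and Mpp4 over 962 and 855 bp in eG1-1 and 341 and 263 bp in LM, and the repair endonuclease gene Ercc5 over 720 and 657 bp in eG1-1 and 253 and 204 bp in LM. None of these passed the test.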

How the data were processed

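ATAC-seq peak lists of 6 samples were used, 2 each labelled mito, LM and eG1-1. MACS2 2.2.4, bedtools, STAR 2.7.0e, SAMtools 1.10, deepTools 3.5.1 and Picard are listed in the submitters' processing notes with mm10 and GRCm38, without roles. A shift for the Tn5 offset and a caller threshold are not stated there. The deposited score of each peak is the authors' own whole number, at least 13 in every list, on a scale that is not stated; peak names show that peaks were called per sample. In the main comparisons the score was used only as a rank within a list. Among the alternatives named below, its log2 was compared directly and a minimum score was applied to all lists. Without read counts the depth, and with it counting error, is unknown.

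From these lists regions were built as the report says, with a region's score the highest of its peaks. Gene ends came from a RefSeq table on GRCm38.p6, strand and promoters from RefSeq promoter sequences on the same assembly. Normal scores of ranks and centred log2 covered lengths were compared with limma 3.58.1 (R 4.3.3, one fit of all 6 lists, no covariate, Benjamini-Hochberg over 9939 shared regions), tested on simulated data first; tables used Python 3.11.15 with pandas 2.3.3 and SciPy 1.17.1. Members named in a rank comparison were the 5 with the largest difference in each direction (3 for width) among those called or, where too few were, among those whose groups did not overlap; for each gene list those of highest and lowest mean rank were drawn up, and a selection is printed. The members, gene lists and motifs were chosen with earlier results of these data known. Alternatives were a minimum score of 50, lists of equal length, an overlap of 100 bp, windows of 500 bp and 2 kb, undivided ranks, log2 scores, ranks among the members alone, regions with 1 peak in every list, a replicate block and each list left out.

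Replicate numbers pair the lists because the peak names show a run folder for each number. The correlation of the deviations of same-numbered lists was 0.0367 (LM with mito), 0.088 (eG1-1 with mito) and 0.0554 (eG1-1 with LM), so the pairing comes from the folder names and not from the values.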

Additional observations from a re-analysis of the deposited data

How the results depend on the processing

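The count of members was 2753 at a minimum score of 50 and 5335 without LM replicate 2, and between 4523 and 5335 over the lists left out. The share of genes with a member was 15.8% at a score of 50, 20.8% with lists of equal length, 22.1% with a window of 500 bp and 27.7% with 2 kb. At a score of 50, 452 members lay above and 455 below mito in LM, 753 lay below and 565 above mito in eG1-1, and 566 below and 466 above LM in eG1-1. With ranks among the members alone the counts were 784 below and 766 above for LM against mito. They were 1103 below and 1073 above for eG1-1 against mito and 814 below and 864 above for eG1-1 against LM. Ranking within the members takes out any shift that they share, so these counts cannot show whether there is one. Leaving out a list of the group that is not compared cannot change the counts by ranks among all shared regions. They stayed at 767 above and 758 below for LM against mito and at 847 above and 1349 below for eG1-1 against mito. For eG1-1 against LM they stayed at 669 above and 1048 below. Leaving out 1 list of a compared group asks fewer lists to agree. The counts then ran between 1435 and 1645 above and 1342 and 1743 below for LM against mito. For eG1-1 against mito they ran between 1340 and 1424 above and 1906 and 2003 below. For eG1-1 against LM they ran between 1218 and 1456 above and 1679 and 2074 below. The group left with 1 list was assumed to vary like the others.

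Calls stayed at 0 members in the rank and width comparisons when any 1 list was left out, and with the replicate block. With log2 scores 10 members were called in eG1-1 against mito; the cause was not tested. Calls over the members alone are not given.

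The CpG gap between eG1-1 and mito was −0.51 at a score of 50 and −0.47 with lists of equal length and with an overlap of 100 bp. It was −0.55 with ranks among members alone, −0.51 in regions with 1 peak and between −0.56 and −0.42 with a mito or an eG1-1 list left out. The replicate block and leaving out an LM list cannot change it, because each group has 1 list in each run and LM is not compared. Unknown depth limits all comparisons: a low rank in a long list need not mean less access.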

Other observations

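Divergent promoters differed from single ones in the same sense as CpG-rich promoters. The 320 members with a divergent pair of starts within reach had a median difference of −0.31 normal scores for eG1-1 against mito and −0.32 for eG1-1 against LM. The 3157 members with 1 start had −0.12 in both comparisons. The 171 members with a start and another kind of gene end had −0.04 for eG1-1 against mito and −0.03 for eG1-1 against LM. These are descriptions without a test.

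Tubb3 held 2 members, 1 at each end of the gene. The first, at chr8:123410957-123412849, was at percentiles 53.6 and 55.6 in the mito lists, 27.3 and 61.2 in the LM lists and 29.2 and 14.1 in the eG1-1 lists. The second, at chr8:123422337-123423010, was at 32.2 and 54.9 in the mito lists, 12.8 and 20.3 in the LM lists and 2.82 and 12.8 in the eG1-1 lists. In both regions the eG1-1 lists lay below both mito lists.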
